A study of Homo sapiens with 17 samples.

Results

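In HCT116 cells that lacked working DGCR8, 76 of 336 microRNA hairpins rose and 87 fell in the rescue with P351A DGCR8 against the mock rescue, a split that depends on how the libraries are scaled. Hairpins of the let-7, miR-17-92, miR-103, miR-107, miR-101 and miR-125 families were among the rises. The mir-183 cluster, mir-16, mir-29b, mir-126 and many late-numbered hairpins were among the falls, and the miR-30, miR-181 and HOX-cluster microRNAs did not pass the test in either direction. These 3 groups were lower than in the rescue with wild-type DGCR8. In several clusters, hairpins that are cut from one primary transcript parted, with one partner raised and the other not.

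The libraries were small RNA libraries of HCT116, an established human colon carcinoma line, and 6 of the 17 in the series make up the comparison: 3 of the P351A rescue and 3 of the mock rescue. Every rescue group started from HCT116 cells whose DGCR8 was disabled by CRISPR-Cas9 deletion of its CTT domain (dCTT), so the mock cells carry that deletion and no added DGCR8. The other groups used here were dCTT cells given wild-type DGCR8 (WT), dCTT cells given DGCR8 with C352A, and dCTT cells with P351A plus ALA (an abbreviation kept as labelled, without expansion), with 3 libraries each. Parental HCT116 and unrescued dCTT cells had 1 library each. The labels number the libraries of a group but do not call them separate cultures, and they do not say whether the cells are clones or how the rescue was expressed. The tests therefore measure the spread among libraries, which may be technical. The hairpins described are those whose mean over the 15 rescue libraries was 10 or more, 336 of the 1282 in the table. Values are scaled reads: reads per hairpin multiplied by a factor that the authors set for each library.

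The protein DGCR8 binds primary microRNA transcripts and guides the nuclease DROSHA to them. This Microprocessor complex contacts the apical loop and stem and cuts out the hairpin that DICER later trims to the mature microRNA. DGCR8 binds heme through a region that holds both altered residues, which are neighbours, and the cysteine is the residue known to contact the heme iron. Hemin is heme with oxidised iron, and the series title says that Microprocessor depends on it to recognise the apical loop. Some microRNAs bypass Microprocessor: mirtrons are cut out by splicing, and mir-320a and mir-484 begin at a transcription start site.

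The mature sequences below belong to families in which hairpins rose, with the seed (bases 2 to 8, which pairs with target messages) in capitals. Values are per hairpin, so the arm that the reads came from is not known, and 1 arm of each hairpin is shown. They come from RefSeq on GRCh38.p14, where 273 of the 336 hairpins had an entry. The let-7 sequences share 1 seed, and let-7b is shown because it was the one member that did not rise:
let-7a-5p: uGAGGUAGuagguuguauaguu
let-7f-5p: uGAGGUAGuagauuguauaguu
let-7d-5p: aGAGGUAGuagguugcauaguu
let-7i-5p: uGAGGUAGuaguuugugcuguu
miR-98-5p: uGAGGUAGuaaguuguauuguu
let-7b-5p: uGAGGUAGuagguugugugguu
Those of miR-103a and miR-107 differ only near the 3′ end, so their hairpins drew almost the same reads:
miR-103a-3p: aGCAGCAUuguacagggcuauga
miR-107: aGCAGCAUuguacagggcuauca
The miR-17-92 transcript yields several seeds, and miR-17 and miR-20a share 1 of them:
miR-17-5p: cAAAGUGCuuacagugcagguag
miR-20a-5p: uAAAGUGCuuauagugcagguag
miR-19a-3p: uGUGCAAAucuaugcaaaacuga
miR-19b-3p: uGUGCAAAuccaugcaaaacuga
miR-92a-3p: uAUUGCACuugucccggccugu
These belong to some of the other hairpins that rose:
miR-101-3p: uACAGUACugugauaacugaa
miR-125a-5p: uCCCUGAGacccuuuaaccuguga
miR-9-5p: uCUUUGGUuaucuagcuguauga
miR-31-5p: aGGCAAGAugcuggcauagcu
miR-210-3p: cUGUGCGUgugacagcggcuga

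The second set carries the falls and the pairs that parted. In 4 groups the seed is shared by a microRNA whose hairpin fell and one whose hairpin did not, or by one whose hairpin rose and one whose hairpin did not:
miR-29a-3p: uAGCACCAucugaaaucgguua
miR-29b-3p: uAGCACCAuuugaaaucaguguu
miR-29c-3p: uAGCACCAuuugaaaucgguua
miR-15a-5p: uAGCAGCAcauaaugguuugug
miR-16-5p: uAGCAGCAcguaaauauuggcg
miR-429: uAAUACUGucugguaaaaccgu
miR-200b-3p: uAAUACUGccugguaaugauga
miR-200c-3p: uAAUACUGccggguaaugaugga
miR-221-3p: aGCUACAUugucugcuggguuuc
miR-222-3p: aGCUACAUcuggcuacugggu
These belong to some of the other hairpins that fell, and the seeds of miR-96 and miR-182 share their first 6 bases:
miR-141-3p: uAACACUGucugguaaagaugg
miR-96-5p: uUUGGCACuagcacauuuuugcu
miR-182-5p: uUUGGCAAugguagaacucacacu
miR-126-3p: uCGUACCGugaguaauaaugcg
miR-877-5p: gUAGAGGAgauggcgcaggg
miR-373-3p: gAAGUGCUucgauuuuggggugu

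One feature sets the P351A libraries apart before any hairpin is compared. In them mir-373, a microRNA of pluripotent cells (chromosome 19, 53788705 to 53788773, plus strand, GRCh38), had no read, against 4297, 4095 and 1634 scaled reads in mock libraries a, b and c. It was likewise at 0 in the 3 libraries of P351A plus ALA, while WT held 1607 to 5176 and C352A 1038 to 1955. Against a floor of 3 reads over the group, mir-373 was at least 8126-fold lower in P351A than in mock, its neighbour mir-372 at least 84.9-fold lower and mir-202 at least 125-fold lower. Both sets of P351A libraries share this, so the rescue protein and the cells that received it cannot be told apart for any difference below. Depth differed too: P351A libraries held 1666688 to 2175294 reads and mock libraries 146023 to 587214, and their scaled totals were 763850 to 881265 and 470110 to 587214. The epithelial markers that a colon carcinoma line should hold were present: the 5 hairpins of the epithelial miR-200 family summed to 2400 to 2725 scaled reads in P351A and 1742 to 3658 in mock, and the 5 gut epithelial hairpins to 176 to 191 and 90.1 to 162. Liver (mir-122) and striated muscle hairpins were at or near 0. Some hairpins of other cell types moved with the comparison. The neural mir-9-1, whose reads its 2 copies share, stood at 664 to 1023 in P351A against 133 to 277 in mock. Of the 6 neural hairpins sought, only the 3 of mir-9 had an entry, and those of mir-124 had none. The smooth muscle pair of mir-143 and mir-145 summed to 124 to 161 in P351A against 25.1 to 72.0 in mock. In that pair mir-143 rose (log2 fold change 2.02) and mir-145 did not pass the test given below (0.16). The endothelial mir-126 stood at 231 to 277 against 718 to 751, and the 6 blood hairpins summed to 24.7 to 45.4 against 54.7 to 113. Only 1 of these 6 was tested, mir-486-1, and it did not pass (-0.43). The part of other cells in the results was not tested.

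Across all 336 hairpins 76 rose (22.6%) and 87 fell (25.9%) in P351A against mock, by limma on log2(value + 1) with Benjamini-Hochberg adjustment at 0.05. Calls made up 48.5% of the hairpins, 188 hairpins had an unadjusted p under 0.05, and the median log2 fold change was -0.03. These counts take each copy separately, and the 336 become 283 when copies with nearly the same reads are joined. That split moves with the scale. With each library centred on its median 114 rose and 73 fell, with equal totals 55 and 164, and centred on the DGCR8-independent hairpins 153 and 25, with medians of 0.26, -0.72 and 0.87. The DGCR8-independent centring rests on only 5 hairpins. On the authors' scale their log2 fold changes differed widely, from -2.88 (mir-877) to 0.78 (mir-484). With TMM scaling in edgeR 105 rose and 76 fell. The 3 P351A libraries lay all above the 3 mock libraries in 100 hairpins (29.8%) and all below them in 121 (36%), so that 65.8% did not overlap. Of the 163 calls, 115 held whichever of the 6 libraries was left out.

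**Figure D1:**
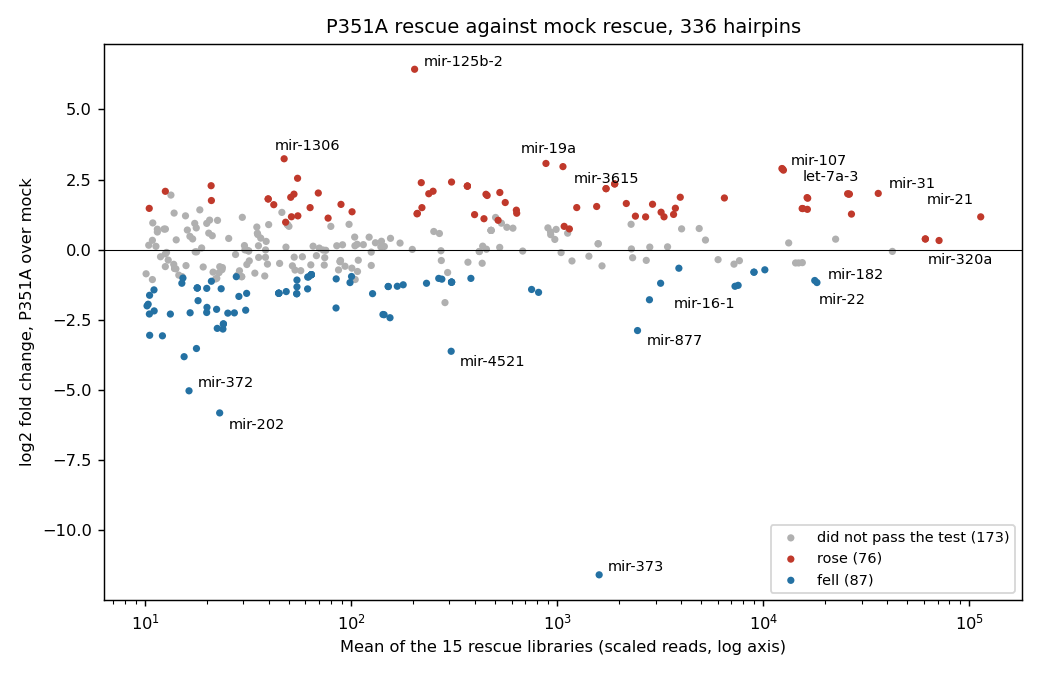
Each point is 1 of 336 hairpins: its mean over the 15 rescue libraries in scaled reads (log axis) against its log2 fold change in P351A over mock, red for the 76 that rose, blue for the 87 that fell and grey for the 173 that did not pass the test. The rises extend to hairpins of high level such as let-7a-3 and mir-31, while most of the deepest falls lie among hairpins of low level; mir-373, mir-372 and mir-202 have no P351A read, so their plotted values depend on the added 1.

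The let-7 family, microRNAs that restrain growth genes such as RAS and HMGA2, rose together. Of 12 hairpins 11 rose and none fell, with a median log2 fold change of 1.59 beside -0.03 for all tested. For let-7a-3 (chromosome 22, 46112749 to 46112822, plus strand, in an exon of MIRLET7BHG) mock libraries a, b and c held 11271, 7868 and 7374 scaled reads, and P351A libraries 1 to 3 held 29251, 36256 and 38148. All P351A libraries lay above all mock libraries, and the log2 fold change was 1.98 ± 0.22 (SE; adjusted p = 2.23e-06). For let-7i, chromosome 12, the values were 5830, 4353 and 4038 in mock and 9866, 12674 and 11517 in P351A, again without overlap (1.27 ± 0.28, adjusted p = 0.00128). For comparison, let-7d had 1505, 1220 and 1163 against 2710, 2924 and 3095 (1.17 ± 0.25, adjusted p = 0.000922), a call that was lost with equal totals (0.48).

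The exception was let-7b, which lies downstream of let-7a-3 in the same host transcript (chromosome 22, 46113686 to 46113768). Its mock libraries held 1899, 1455 and 1223 scaled reads and its P351A libraries 1357, 1561 and 1694, so the groups overlapped (0.03 ± 0.23, 95% interval -0.46 to 0.51, adjusted p = 0.933). Under the other scalings the let-7 median stayed above 0, at 1.88, 0.90 and 2.49 for median centring, equal totals and centring on the DGCR8-independent hairpins, with 10 rises and a fall of let-7b (-0.67) under equal totals. Copies of let-7a and of let-7f share a mature sequence, so their hairpins are not separate measurements.

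In the miR-17-92 family, growth-promoting microRNAs cut from MIR17HG on chromosome 13 and from its paralogues, 9 of 12 hairpins rose and none fell (median 1.42), or 6 rose and mir-17 fell with equal totals (median 0.72). The strongest was mir-19a, which had 505, 155 and 170 scaled reads in mock and 1420, 2593 and 2189 in P351A. These libraries did not overlap, as its naming required, and the log2 fold change was 3.07 ± 0.53 (adjusted p = 0.000181). Its relative mir-19b-2, whose mature sequence is shared with mir-19b-1, had 1395, 431 and 471 against 2402, 4235 and 3687 (2.35 ± 0.49, adjusted p = 0.000836). For mir-92a-1 the values were 8482, 3976 and 4537 against 19122, 21013 and 17321 (1.84 ± 0.35, adjusted p = 0.000434). Mock library a was the highest of its group for each of these, yet P351A was above it.

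The first hairpin of the transcript, mir-17, did not follow. It had 1239, 460 and 556 scaled reads in mock and 492, 535 and 526 in P351A, with overlap (-0.40 ± 0.44, adjusted p = 0.463). Between the extremes, mir-18a (1.35 ± 0.42, adjusted p = 0.0131) and mir-20a (1.30 ± 0.47, adjusted p = 0.0279) rose, and both calls depended on single libraries. That of mir-18a was lost without mock library c (1.06), that of mir-20a without P351A replicate 2 or 3 (1.22 and 1.27) or mock library b or c (1.06 and 1.11), and both with equal totals (0.67 and 0.61). In the paralogous cluster in MCM7, mir-93 (1.48 ± 0.34, adjusted p = 0.00172) and mir-25 (1.26 ± 0.38, adjusted p = 0.0115; 1.09 and not called without mock library b) rose, and mir-106b gave 0.73 ± 0.36 (adjusted p = 0.103).

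The miR-103 and miR-107 hairpins sit in introns of PANK genes, which encode pantothenate kinases, and had the highest median (2.88) among the families and lists with 3 or more tested members, 2.18 to 3.77 under the other scalings. For mir-107 (chromosome 10, 89592747 to 89592827, minus strand, PANK1 intron) mock libraries held 2831, 2099 and 2010 scaled reads and P351A libraries 14896, 18916 and 17433. Every P351A library stood far above every mock library, and the log2 fold change was 2.89 ± 0.27 (adjusted p = 3.82e-07). The copies mir-103a-1 (2.88) and mir-103a-2 (2.84) drew nearly the same reads as mir-107 and cannot be counted as independent of it.

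The miR-101 hairpins, whose microRNA represses the chromatin enzyme EZH2, rose by 2.18 ± 0.31 (adjusted p = 3.2e-05). In mir-101-2, in an RCL1 intron, mock libraries held 595, 505 and 461 scaled reads and P351A libraries 2039, 2735 and 2323. Its copy mir-101-1 shares these reads.

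All 3 miR-125 hairpins, homologues of the worm regulator lin-4, rose (median 2.41, and 1.73 to 3.31 under the other scalings). The largest fitted rise was that of mir-125b-2, with 38.0, 0 and 2.51 scaled reads in mock and 533, 440 and 372 in P351A (6.43 ± 1.34, adjusted p = 0.000807). Mock library a alone held 38.0, so the size of that rise rests on the low mock libraries. For mir-125a, in a SPACA6 intron on chromosome 19, the values were 53.0, 28.97 and 52.6 against 283, 254 and 180 (2.41 ± 0.69, adjusted p = 0.00813). In mir-125b-1, 413, 280 and 318 stood against 755, 679 and 640 (1.05 ± 0.40, adjusted p = 0.0374), which was lost without any 1 of the P351A libraries (0.98, 1.06 and 1.10) or mock library b or c (0.93 and 1.02), with equal totals (0.35) and by edgeR (1.03).

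Further rises were spread over unrelated microRNAs. In mir-31 (chromosome 9, 21512115 to 21512185, minus strand), a microRNA altered in many carcinomas, mock libraries held 16546, 11281 and 10222 scaled reads and P351A libraries 44225, 52750 and 53218 (2.01 ± 0.23, adjusted p = 2.96e-06). The hypoxia microRNA mir-210, in an intron of MIR210HG, had 75.0, 57.9 and 75.2 against 272, 307 and 309 (2.09 ± 0.33, adjusted p = 9.5e-05). For mir-429 of the epithelial miR-200 family the values were 267, 119 and 143 against 633, 738 and 687 (2.04 ± 0.38, adjusted p = 0.000356). In each case no P351A library reached down into the mock range, which was a condition for naming these hairpins.

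In an intron of CLCN5 on chromosome X, mir-532 had 121, 80.5 and 55.1 scaled reads in mock and 404, 464 and 427 in P351A (2.39 ± 0.36, adjusted p = 4.72e-05). Its cluster partner mir-660 rose too (2.00 ± 0.36, adjusted p = 0.000239), while mir-500a gave -0.02 ± 0.34 (adjusted p = 0.969), so 2 of the 5 tested hairpins of the intron rose and none fell (median -0.01, and 0.28 or 0.89 with median or DGCR8-independent centring). With equal totals 2 rose and 3 fell (median -0.70). The neural microRNA mir-9-1 had 277, 145 and 133 against 664, 1023 and 891 (2.27 ± 0.47, adjusted p = 0.000807), and its copies mir-9-2 and mir-9-3 share those reads. For mir-3615 the values were 199, 122 and 526 against 2067, 2028 and 1467 (2.96 ± 0.47, adjusted p = 9.2e-05), and mock library c was the highest mock library. Of the p53-responsive mir-34 hairpins, mir-34a rose (1.98 ± 0.46, adjusted p = 0.002) and mir-34c gave 0.94 ± 0.68 (adjusted p = 0.264).

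The most abundant hairpin in P351A was mir-21, a cancer-linked microRNA overlapping an exon of VMP1, with 68606, 92310 and 89927 scaled reads against 55688, 32230 and 27725 in mock (1.17 ± 0.28, adjusted p = 0.00244). It was followed by mir-320a, mir-320b-2, mir-320b-1 and mir-31, with P351A means of 75177, 68865, 68864 and 50064. The Microprocessor-independent mir-320a had 63682, 56997 and 58878 in mock and 77467, 75881 and 72183 in P351A, a called rise (0.33 ± 0.09, adjusted p = 0.00813), which turned into a fall with equal totals (-0.37) and was lost by DESeq2 and with no variance trend. On the authors' scale the summed mir-320 copies a, b-1, c-1 and c-2 lay at 0.946 to 1.25 times that of mock library a in all 15 libraries, while mir-320a made up 3.48% to 14.5% of the reads. This sum, of which mir-320a is itself a part, stood at 0.946 to 1 in mock and 1.11 to 1.15 in P351A. How the authors' factors were set was not tested.

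**Figure D2:**
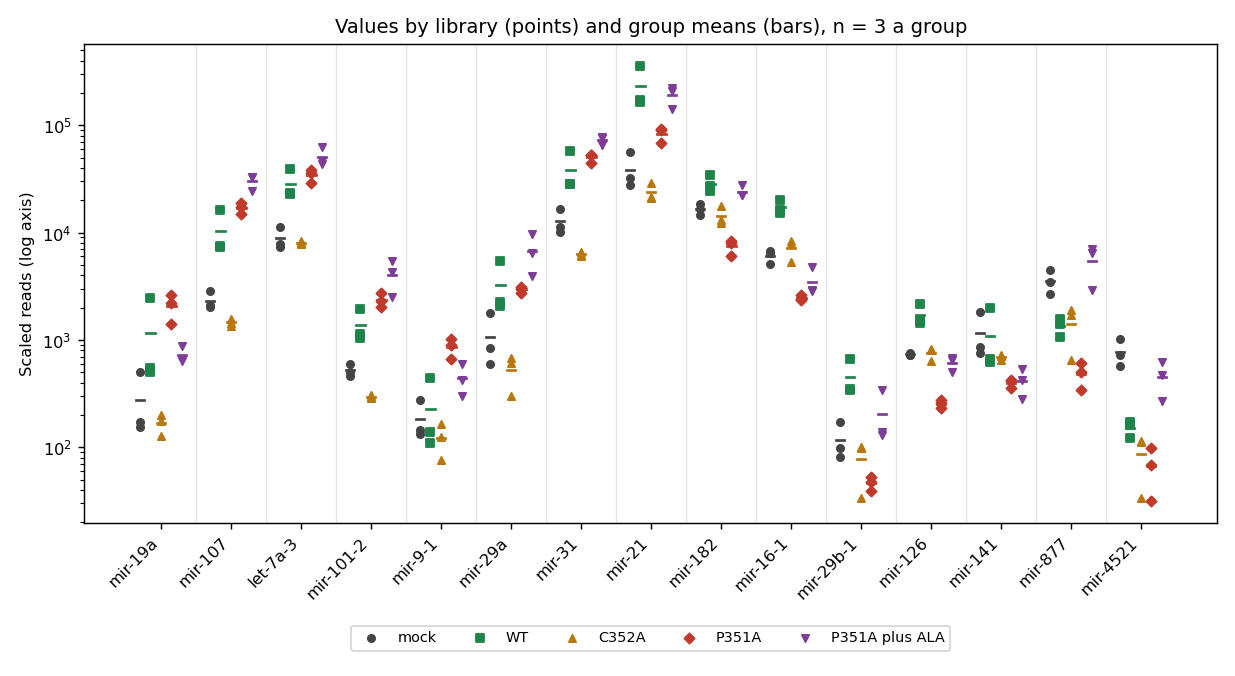
Scaled reads (log axis) of 15 hairpins in every rescue library, with 3 points and a mean bar for each of the 5 groups. P351A (red diamonds) lies above mock (grey circles) for mir-19a, mir-107, let-7a-3, mir-101-2, mir-9-1, mir-29a, mir-31 and mir-21, and below it for mir-182, mir-16-1, mir-29b-1, mir-126, mir-141, mir-877 and mir-4521.

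All 3 hairpins of the mir-183 cluster on chromosome 7, which also holds mir-96 and mir-182, microRNAs of sensory organs that are often raised in carcinomas, fell (median -1.19). The abundant mir-182 had 14729, 16731 and 18604 scaled reads in mock and 8319, 8052 and 6030 in P351A (-1.17 ± 0.19, adjusted p = 0.000122). For mir-183 the values were 2080, 2357 and 2474 against 896, 1074 and 1050 (-1.19 ± 0.25, adjusted p = 0.000807). In mir-96 they were 114, 86.9 and 100 against 33.5, 29.6 and 36.6 (-1.56 ± 0.51, adjusted p = 0.0178), a call lost without P351A replicate 2 (-1.49). No P351A library of the 3 hairpins reached the mock range, and the median stayed below 0 under every scaling (-0.91, -1.89 and -0.30), although centring on the DGCR8-independent hairpins left none of the 3 called.

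Away from these, mir-126, in an intron of EGFL7 on chromosome 9, fell evenly: 751, 718 and 727 scaled reads in mock against 231, 277 and 259 in P351A (-1.52 ± 0.26, adjusted p = 0.000187; -0.62 and not called when centred on the DGCR8-independent hairpins). The abundant mir-22 was picked for naming after its values were seen, and its values were 13535, 7447 and 7718 against 4204, 4236 and 4476 (-1.10 ± 0.24, adjusted p = 0.0012; -0.20 under the same centring). The growth-restraining mir-16-1, in an intron of DLEU2 on chromosome 13, had 6751, 5077 and 6462 against 2398, 2377 and 2595 (-1.30 ± 0.24, adjusted p = 0.000322; -0.41 under that centring). Its copy mir-16-2 shares the mature sequence and fell by 1.27 on the log2 scale. In all of these the groups did not overlap, which was a condition for naming mir-126 and mir-16-1.

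The mir-26a and mir-23 hairpins showed smaller falls that rested on single libraries. In the miR-26 family, which lies in introns of CTDSP genes, the 2 mir-26a copies fell and mir-26b did not pass the test (0.91 ± 0.44, adjusted p = 0.093). The first copy, mir-26a-1, had 5155, 3776 and 4712 scaled reads in mock and 2460, 2545 and 2784 in P351A (-0.80 ± 0.27, adjusted p = 0.0201), but 0.10 when centred on the DGCR8-independent hairpins. It was not called without P351A replicate 1 or 2 (-0.76 and -0.79) or mock library a or c (-0.70 and -0.77). Of 6 miR-23, miR-27 and miR-24 hairpins, whose median of -0.50 turned to 0.40 under that centring, 2 fell: mir-23a (-1.02 ± 0.39, adjusted p = 0.0382) and mir-23b (-1.05 ± 0.35, adjusted p = 0.0196). Leaving out mock library a ended both calls (-0.75 and -0.78), P351A replicate 1 did so too (-0.86 and -0.92), and that of mir-23a was also lost without P351A replicate 2 or 3 (-1.07 and -1.12) or mock library c (-1.12).

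Hairpins that do not need DGCR8 also moved. Of the 5 tested, 3 fell and mir-320a rose, with a median of -1.04. The mirtron mir-877, in an ABCF1 intron on chromosome 6, had 2683, 4517 and 3484 scaled reads in mock and 609, 507 and 342 in P351A (-2.88 ± 0.41, adjusted p = 3e-05). It was low in WT (1071 to 1578) and C352A (652 to 1886) as well and high in P351A plus ALA (2942 to 7013). The mirtrons mir-1224 (-1.66 ± 0.37, adjusted p = 0.00142) and mir-1226 (-1.04 ± 0.31, adjusted p = 0.0107; -0.80 and not called without mock library c) fell, and mir-484 gave 0.78 ± 0.54 (adjusted p = 0.244).

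Of the 8 mir-320 copies 3 rose and 2 fell (median -0.02, or 0.27 and 0.87 with median or DGCR8-independent centring). The other rises, mir-320b-1 and mir-320b-2, also turned with equal totals (-0.31 for both). The falls were mir-320c-2, with 3741, 6345 and 5129 scaled reads in mock and 1304, 1460 and 1571 in P351A (-1.78 ± 0.26, adjusted p = 3.32e-05), and mir-320c-1 (-0.71 ± 0.16, adjusted p = 0.00175), which centring on the DGCR8-independent hairpins turned to 0.18. Copies that differ by few bases can draw on the same reads, and the sources used here do not give how such reads were divided.

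The falls lay mostly among late-numbered hairpins, which entered the microRNA catalogue recently and are often of low level. Of 108 tested hairpins numbered 1200 or higher 59 fell and 3 rose (median -1.03), and of 228 with lower numbers 28 fell and 73 rose (median 0.39). Copies with nearly the same reads count separately here. With such copies joined, the 108 become 88 and the 228 become 195. Levels differ between these groups as well, with a median over the 15 libraries of 29.5 and 244 scaled reads. Among the late-numbered hairpins mir-4521 had 568, 1017 and 722 in mock and 99.5, 68.1 and 31.7 in P351A (-3.62 ± 0.48, adjusted p = 1.71e-05). For mir-1254-1 the values were 148, 258 and 231 against 53.2, 42.5 and 29.8 (-2.31 ± 0.35, adjusted p = 6.03e-05), and for mir-4435-2 147, 235 and 211 against 84.3, 77.8 and 71.3 (-1.31 ± 0.28, adjusted p = 0.000836; -0.42 and not called when centred on the DGCR8-independent hairpins). In each of the 3 mock library a was the lowest mock library and still above every P351A library, as their naming required.

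The 6 hairpins that resemble ribosomal RNA all fell (median -1.15), but only 2 were called with median centring or DGCR8-independent centring. The fall of the mir-6724 copies, whose shared value sets the medians, was not particular to P351A. Against the same mock libraries the medians were -1.19 in WT (4 of 6 fell), -1.25 in C352A (4 fell) and -1.27 in P351A plus ALA (5 fell). The median of P351A minus WT was 0.04, with 2 of 6 lower in P351A (down to -2.69). Those 2, which include mir-7641-2, were also lower than in C352A (down to -2.03). Both differences were called under every scaling. In mir-7641-2 there were 215, 290 and 155 scaled reads in mock and 44.0, 40.5 and 33.2 in P351A (-2.42 ± 0.29, adjusted p = 5.75e-06). The 4 copies of mir-6724 share 1 set of reads, at 266, 263 and 212 in P351A and higher in each mock library (-1.15 ± 0.35, adjusted p = 0.0115), and were not called without P351A replicate 3 (-1.05) or mock library b (-0.93), or with median centring (-0.87).

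Several families that need Microprocessor were not called in either direction. None of the 6 miR-30 (median 0.26), 6 miR-181 (0.21), 5 HOX-cluster mir-10 and mir-196 (0.10), 4 mir-192, mir-194 and mir-215 (0.31), 5 miR-130, miR-301 and miR-454 (-0.03) or 3 miR-99 and miR-100 hairpins (0.59) was called. The first 4 and the last of these medians were below 0 with equal totals, and that of miR-130, miR-301 and miR-454 was above 0 with median or DGCR8-independent centring. Calls depended on the scaling in both directions. Centring on the DGCR8-independent hairpins called rises in 3 of 6 miR-30, 3 of 6 miR-181, 3 of 5 HOX-cluster, 3 of 4 mir-192 group, 2 of 5 miR-130 group and 3 of 3 miR-99 and miR-100 hairpins. Equal totals called falls in 3 of 6 miR-30, 2 of 6 miR-181, 3 of 5 HOX-cluster, 1 of 4 mir-192 group and 2 of 5 miR-130 group hairpins. In mir-30a, on chromosome 6, mock libraries held 224, 287 and 298 scaled reads and P351A libraries 243, 234 and 208 (-0.23 ± 0.34, 95% interval -0.94 to 0.48). For mir-10a, which overlaps HOXB genes on chromosome 17, the values were 5385, 4015 and 4346 against 5768, 5961 and 5994 (0.38 ± 0.24, 95% interval -0.12 to 0.87, adjusted p = 0.192). The mir-30a libraries overlapped, the mir-10a libraries of P351A lay above those of mock, and the upper bounds allow rises of 0.48 and 0.87 on the log2 scale.

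**Figure D3:**
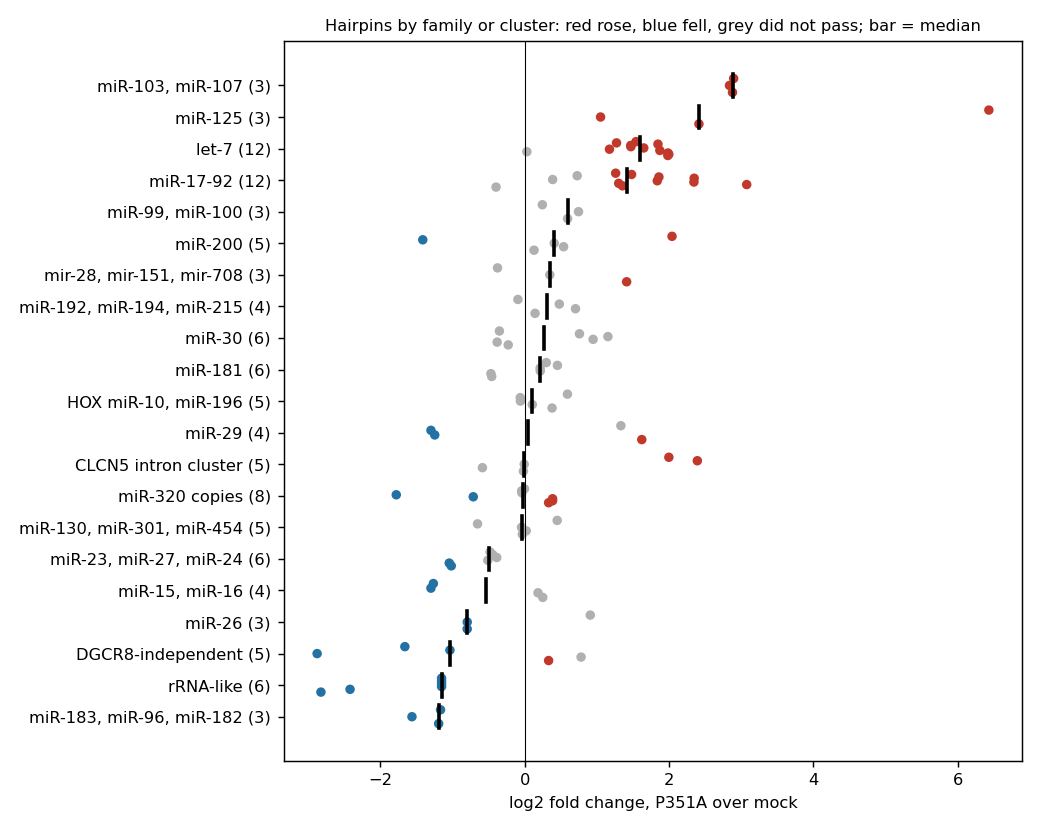
Log2 fold change in P351A over mock of every tested hairpin in the families and clusters with 3 or more tested members (number in brackets), red for rose, blue for fell and grey for not called, with the median as a black bar. The medians of miR-103 with miR-107, miR-125, let-7 and miR-17-92 lie at 2.88, 2.41, 1.59 and 1.42 and the mir-183 cluster median at -1.19, signs kept under the 3 other scalings; the medians from the miR-99 row down to the miR-26 row change sign under at least 1 of them.

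Neighbouring hairpins of one primary transcript parted in several clusters. Ratios between 2 hairpins of the same library depend little on the scale and are given for each library as log2 ratios of scaled reads + 1, where the added 1 weighs most on hairpins of low level. These pairs were picked after their values were seen, as the highest and lowest member of a cluster, and so carry no test. That choice also sets the direction of each difference from mock. Of 35 clusters (tested hairpins of a strand within 10 kb), 24 had every P351A ratio above every mock ratio. The choice of pairs favours such separation, so this count does not measure how often partners part. It includes mir-372 over mir-373, which had no P351A read, and copies of mir-941, where the difference was 0.04. Some of the clusters also share reads through copies. For mir-19a over mir-17 the ratio was -1.29, -1.57 and -1.70 in mock and 1.53, 2.27 and 2.06 in P351A. WT (-1.30, -1.94 and -1.94) and C352A (-1.48, -1.93 and -1.18) lay in the mock range or near it, and P351A plus ALA between (-0.21, -0.37 and 0.50). In all 3 P351A libraries mir-19a outnumbered mir-17, and in the mock, WT and C352A libraries it did not.

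The hairpins of these partners are shown with the apical segment, the bases between the 2 mature arms, in capitals. That segment holds the loop that DGCR8 contacts:
mir-17 (chromosome 13, 91350605 to 91350688, plus strand): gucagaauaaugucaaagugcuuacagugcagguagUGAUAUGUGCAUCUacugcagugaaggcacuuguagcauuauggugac
mir-19a (chromosome 13, 91350891 to 91350972, plus strand): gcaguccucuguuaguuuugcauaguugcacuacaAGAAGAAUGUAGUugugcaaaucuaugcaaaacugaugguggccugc
mir-29a (chromosome 7, 130876747 to 130876810, minus strand): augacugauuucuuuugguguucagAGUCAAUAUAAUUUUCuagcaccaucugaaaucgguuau
mir-29b-1 (chromosome 7, 130877459 to 130877539, minus strand): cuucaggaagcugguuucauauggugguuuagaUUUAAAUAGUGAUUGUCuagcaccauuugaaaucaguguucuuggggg
mir-15a (chromosome 13, 50049119 to 50049201, minus strand): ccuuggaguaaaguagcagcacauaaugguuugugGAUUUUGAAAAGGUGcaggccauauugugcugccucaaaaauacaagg
mir-16-1 (chromosome 13, 50048973 to 50049061, minus strand): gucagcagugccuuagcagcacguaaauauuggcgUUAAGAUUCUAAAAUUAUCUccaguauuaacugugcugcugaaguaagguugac

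The miR-29 hairpins, whose microRNAs repress collagens and DNA methyltransferases, parted in both of their clusters. For mir-29a, on chromosome 7, mock libraries held 1773, 596 and 832 scaled reads and P351A libraries 2735, 2992 and 3132 (1.62 ± 0.45, adjusted p = 0.00686). Its partner mir-29b-1 had 172, 80.5 and 97.8 against 39.0, 47.4 and 52.7 (-1.25 ± 0.46, adjusted p = 0.0328), and theirs was the 1 cluster of 35 (tested hairpins of a strand within 10 kb) that held a rise and a fall. The log2 ratio of mir-29a to mir-29b-1 was 3.36, 2.87 and 3.08 in mock and 6.10, 5.95 and 5.87 in P351A. It was 2.62 to 3.04 in WT, 2.59 to 3.13 in C352A and 4.82 to 5.51 in P351A plus ALA, so both sets of P351A libraries lay above the other groups. In the second cluster, on chromosome 1, mir-29c over mir-29b-2 was -2.16, -2.82 and -2.75 in mock and -0.02, 0.18 and 0.00 in P351A. There mir-29c itself did not pass the test (1.33, adjusted p = 0.0727). Because mir-29b-1 and mir-29b-2 share their mature sequence, the 2 ratios are not independent. The fall of mir-29b-1 was lost without any 1 P351A library (-1.13, -1.27 and -1.34) or mock library a or c (-0.93 and -1.34), and that of mir-29b-2 (-1.30) likewise (-1.20, -1.35, -1.36, -0.98 and -1.39).

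In the DLEU2 intron mir-15a, with 170, 70.8 and 108 scaled reads in mock and 116, 138 and 137 in P351A, gave 0.25 ± 0.41 (adjusted p = 0.643) beside the fall of mir-16-1. The log2 ratio of mir-15a to mir-16-1 was -5.30, -6.14 and -5.89 in mock and -4.36, -4.10 and -4.23 in P351A. The cluster of mir-15b and mir-16-2 in SMC4 shows the same order, with -6.25, -6.25 and -6.55 against -5.02, -4.74 and -4.94, and again mir-16 reads are shared between the copies. C352A lay below mock in both, with -6.64 to -7.13 and -7.40 to -7.90.

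The miR-200 family, which keeps cells epithelial by repressing ZEB factors, parted on chromosome 12. There mir-141 had 1837, 760 and 860 scaled reads in mock and 357, 423 and 418 in P351A (-1.41 ± 0.42, adjusted p = 0.0108), which was not called without mock library a (-1.02). Its partner mir-200c gave 0.41 ± 0.58 (adjusted p = 0.58), and the log2 ratio of mir-200c to mir-141 was -3.05, -3.61 and -2.56 in mock and -1.06, -1.23 and -1.46 in P351A. In the family 1 of 5 rose and 1 fell (median 0.41, but -0.29 with equal totals), the rise being mir-429 on chromosome 1, whose neighbour mir-200b gave 0.54 ± 0.33 (adjusted p = 0.192).

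On chromosome X mir-221, which represses the cell-cycle inhibitor p27, had 11232, 5186 and 5063 scaled reads in mock and 14730, 20531 and 19485 in P351A (1.44 ± 0.30, adjusted p = 0.000805). Its neighbour mir-222, which has the same seed, had 17226, 18434 and 17235 against 17322, 22460 and 12448 (-0.06 ± 0.17, adjusted p = 0.803). Their log2 ratio was -0.62, -1.83 and -1.77 in mock and -0.23, -0.13 and 0.65 in P351A. Here P351A plus ALA did not resemble P351A, with -2.29, -2.21 and -2.30.

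**Figure D4:**
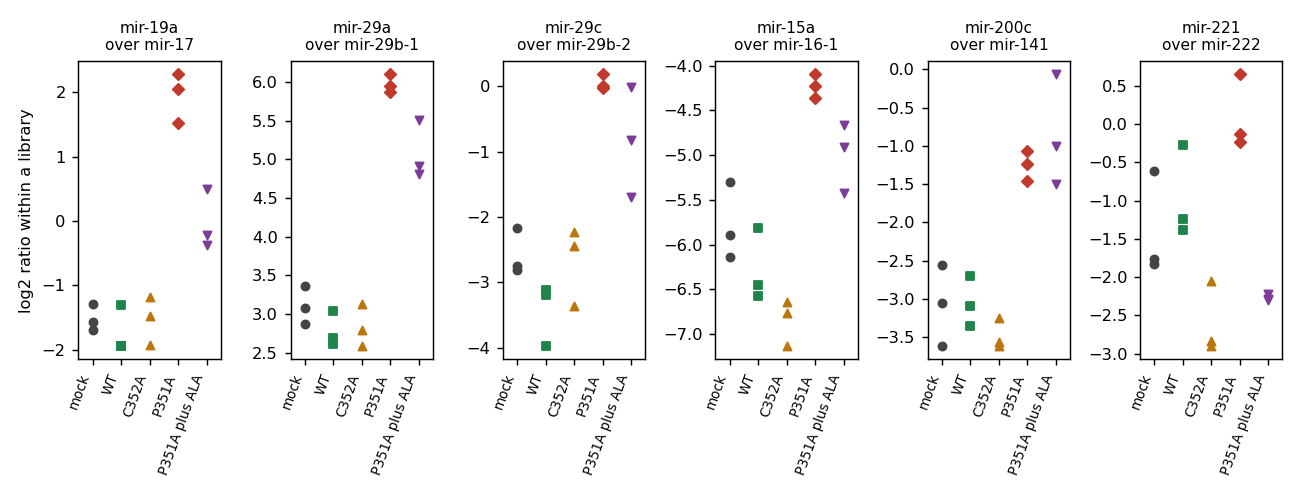
Log2 ratio between 2 hairpins of a cluster within each library, 3 points for each of the 5 groups, one panel per pair. P351A points lie above the mock points in all 6 panels, a direction set by how the pairs were picked. For mir-221 over mir-222 the P351A plus ALA points lie below mock.

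How far each rise reached was compared with the WT and C352A rescues, whose own comparisons with mock use the same mock libraries and are given side by side only. Of 336 hairpins 187 were higher than mock in WT (55.7%) and 25 lower (7.44%), or 63.1% called. In C352A 2 were higher (0.595%) and 48 lower (14.3%), or 14.9%, and in P351A plus ALA 166 were higher (49.4%) and 30 lower (8.93%), or 58.3%. Direct tests set P351A against each. Against WT 11 hairpins were higher in P351A (3.27%) and 172 lower (51.2%), and 54.5% called. The higher hairpins became 27 without WT replicate 1, and 4 when replicate 2 or 3 of either group was left out. With median centring 68 were higher and 74 lower, with equal totals 48 and 91, and with TMM in edgeR 137 and 60. Against C352A 124 were higher (36.9%) and 47 lower (14%), 50.9% in all. The 47 became 23 to 28 when C352A replicate 2 or 3 or P351A replicate 2 or 3 was left out, and equal totals gave 65 higher and 105 lower.

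For most let-7 hairpins no difference from WT passed the test on the authors' scale, although 9 of 12 were higher in P351A with median centring, 8 with equal totals and 6 with DGCR8-independent centring. The P351A minus WT log2 difference was 0.32 for let-7a-3 (95% interval -0.14 to 0.78, adjusted p = 0.234) and -0.03 for let-7g (-0.70 to 0.64, adjusted p = 0.934), and 2 of the 12 were lower in P351A. These were let-7i, with 104515, 51792 and 54982 scaled reads in WT (-2.56 ± 0.28, adjusted p = 8.53e-07), and let-7b, with 4684, 4288 and 4482 (-1.55 ± 0.23, adjusted p = 2.35e-05). All 12 were higher in P351A than in C352A (median 2.11, and 10 of 12 with equal totals). Of the 12 miR-17-92 hairpins 10 were higher than in C352A, 9 with equal totals. Against WT 1 of the 12 was lower, mir-17 (-2.49 ± 0.44, adjusted p = 0.000149), while 5 were higher under each of the 3 other scalings.

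Several families that did not rise over mock were well below WT. All 6 miR-30 hairpins were lower than in WT (median -2.23; 3 to 5 of 6 by the other scalings), and all 6 miR-23, miR-27 and miR-24 hairpins were (median -2.92; 6 of 6 by each). Likewise all 5 HOX-cluster hairpins (median -2.22; 3 of 5), all 3 miR-26 hairpins (-3.16; 2 of 3), all 6 miR-181 hairpins (-1.83; 2 to 5 of 6) and all 5 miR-130, miR-301 and miR-454 hairpins (-1.71; 0 to 2 of 5) were lower. In mir-30a WT libraries held 4784, 3036 and 3368 scaled reads, P351A plus ALA 1363, 2851 and 3569, and P351A 243, 234 and 208 (P351A minus WT -4.00 ± 0.34, adjusted p = 4.99e-08). In mir-10a WT held 92125, 46442 and 59417 and P351A 5768, 5961 and 5994 (-3.42 ± 0.24, adjusted p = 6.62e-09). Against C352A mir-30a gave -0.38 ± 0.34 (95% interval -1.09 to 0.33) and mir-10a was higher in P351A (0.62 ± 0.24, adjusted p = 0.0379). That call was lost without any 1 P351A library (0.64, 0.62 and 0.61) or C352A replicate 2 or 3 (0.58 and 0.45), and equal totals turned it to -0.27. All 3 hairpins of the mir-183 cluster were lower than in WT under every scaling (median -2.45), and 2 of 3 lower than in C352A (median -0.94; 3 of 3 with median centring or equal totals, and 0 of 3 with a median of -0.41 with DGCR8-independent centring).

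The 11 hairpins above WT came from few sources. They were mir-9-1 and its copies (2.16 ± 0.47, adjusted p = 0.000962), mir-532 (1.74 ± 0.36, adjusted p = 0.000573), mir-143, a smooth muscle microRNA (1.37 ± 0.47, adjusted p = 0.021), mir-455 (1.09 ± 0.38, adjusted p = 0.0229), the mir-101 copies (0.82) and the miR-103 and miR-107 hairpins (0.82 ± 0.27 for mir-107, adjusted p = 0.0172). Those of mir-9 and mir-532 held whichever library was left out. The calls of mir-107, mir-101-2, mir-143 and mir-455 were each lost without P351A replicate 2 or 3 (0.74 and 0.80 for mir-107) or WT replicate 2 or 3 (0.62 and 0.63). The mir-9 and mir-143 hairpins are also the markers of other cell types given above.

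By contrast 12 hairpins rose over mock in P351A and were still lower than in WT. These were let-7i, mir-21, mir-28, mir-148a, mir-190b, mir-210, mir-221, mir-224, mir-331, mir-452, mir-542 and mir-1306. Of these only let-7i, mir-224 and mir-452 stayed lower than WT past the threshold with median centring, equal totals, DGCR8-independent centring and TMM alike. For mir-21 WT libraries held 357939, 170815 and 164155 scaled reads (P351A minus WT -1.38 ± 0.28, adjusted p = 0.000571), but TMM turned the difference to 0.13. In mir-210, where WT held 858, 427 and 397, the difference was -0.83 ± 0.33 (adjusted p = 0.0438). It was lost without WT replicate 1 (-0.48) or any 1 P351A library (-0.77, -0.86 and -0.86) and turned to 0.17 with median centring. For mir-221 the difference from WT (-0.82, adjusted p = 0.0274) turned to 0.18 with median centring and 0.12 with DGCR8-independent centring, and it was lost without WT replicate 1 (-0.49) or P351A replicate 1 (-0.68). Median centring also turned that of mir-148a (-0.98, adjusted p = 0.00743) to 0.021. Those of mir-28, mir-190b and mir-1306 were also lost without WT replicate 1 (-0.77, -1.53 and -1.34) and without P351A replicate 2 (-1.20, -2.15 and -1.31) or 3 (-1.13, -2.24 and -1.37), those of mir-28 and mir-190b without P351A replicate 1 (-1.17 and -1.91), and that of mir-1306 without WT replicate 2 (-1.36). The lowest-level members (mir-190b, mir-224, mir-452 and mir-542) had at most 17.0 scaled reads in any P351A library, and their rises over mock were each lost by edgeR on the authors' scale. Of the others, mir-28 was not called without mock library b or c (1.18 and 1.28), mir-148a without mock library b or c or P351A replicate 2 or 3 (0.79, 0.77, 0.75 and 0.81), and mir-331 without mock library b or P351A replicate 2 or 3 (0.84, 0.96 and 0.83).

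The hairpin mir-1306 lies in an exon of the DGCR8 gene itself. It had 0, 3.22 and 0 scaled reads in mock and 17.0, 12.6 and 13.7 in P351A. With 1 mock read the ratio was 24.5, with a counting interval of 4.29 to 978. WT held 34.2 to 42.7, C352A 8.88 to 27.1 and P351A plus ALA 121 to 213, and P351A did not differ from C352A by the test (-0.08 ± 0.50, 95% interval -1.13 to 0.98, adjusted p = 0.915).

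Only mir-423 fell against mock and stood above C352A. It had 4710, 3963 and 3672 scaled reads in mock, 2831, 2743 and 2248 in P351A and 1356, 1627 and 1432 in C352A. Its fall of 0.66 was lost without P351A replicate 3 (-0.55) and turned to 0.24 when centred on the DGCR8-independent hairpins, while the difference from C352A was 0.82 ± 0.21 (adjusted p = 0.00377), which equal totals turned to -0.07.

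The unrescued cells give a separate view of which hairpins need DGCR8. Of 260 tested hairpins that the parental and dCTT table also lists, 223 were at least 4-fold lower in the dCTT library than in the parental one, a comparison of 2 libraries with no replicate. Of these 223, 69 rose and 23 fell in P351A against mock (median 0.39). Of the other 37, 4 rose and 23 fell (median -1.02). Copies with the same reads count separately in both sets, such as mir-6511a-1 to mir-6511a-4 and mir-6724-1 to mir-6724-4 among the falls. The 4 rises were mir-320a, mir-320b-1, mir-320b-2 and mir-3615.

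Since the title names the apical loop, hairpins were grouped by whether the apical segment holds UGU, a motif that DGCR8 is known to favour. The letters searched were UGU on the RNA strand, which 33.7% of 739 RefSeq hairpins with both arms hold. Of the 78 tested hairpins with UGU 24 rose and 16 fell (median 0.26), and of the 113 without it 25 rose and 27 fell (median 0.14). When the segment was widened by 3 bases on each side the order of the medians turned, to 0.14 with and 0.17 without. Among the partners shown above, mir-19a, mir-17 and mir-29b-1 hold UGU and mir-29a, mir-15a and mir-16-1 do not, so partners that rose and partners that did not are found in both sets.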

How the data were processed

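Small RNA libraries were made from size-selected RNA, and adapters were trimmed with cutadapt 1.14 and reads aligned with Bowtie2 to hg38, per the submitters' processing notes. The counting tool is not given in the sources used here, nor is the treatment of reads from shared sequences. Each hairpin's signal was deposited by the authors as what is here called scaled reads, whole reads multiplied by 1 factor per library. All values (100%) came back as whole reads within 0.001, and 1 mock column and the dCTT column were deposited as raw counts. The mock columns match the mock group but no single label, so they are called a, b and c.

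Hairpins with a mean of 10 or more over the 15 rescue libraries (336 of 1282) were tested with limma 3.58.1 (R 4.3.3) on log2(value + 1), eBayes with a trend, all 15 libraries in 1 fit, 2-sided, Benjamini-Hochberg over all 336, threshold 0.05. Errors are standard errors of the log2 fold change, with n = 3 libraries per group. An exact permutation test of 3 against 3 libraries cannot go below 0.10, so none is given. edgeR 4.0.16 and DESeq2 1.42.0 on the recovered whole reads, other scalings, filters, pseudocounts, thinning, the replicate block and leaving out each library were alternatives. The test was checked on simulated data. Read totals ran from 146023 to 587214 in mock and 1666688 to 2175294 in P351A, and intervals of ratios (95%) cover counting error only.

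Members and lists were chosen with earlier results of these data known. Named hairpins were the 12 largest rises and 12 largest falls with mean at or above the median, no overlap of libraries and 1 per set of copies, the members of the lists, the 5 highest in P351A, and those called in opposite directions against mock and against WT or C352A. Also named were mir-22, mir-202, mir-143, mir-145 and mir-455, picked after their values were seen or as cell type markers. Host genes are those of GENCODE on the same strand.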

Additional observations from a re-analysis of the deposited data

How the results depend on the processing

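Counts of called hairpins kept within 1.5 times of their value under most alternatives. The exceptions were the filter at a mean of 100 or more, which tests fewer hairpins (96 called against mock, 91 against WT and 106 against C352A), centring on the DGCR8-independent hairpins (118 against WT) and thinning to the shallowest depth (110 against C352A), whose cause was not tested. Leaving out 1 library gave 134 to 175 calls against mock, 145 to 172 against WT and 115 to 168 against C352A. Fits with no filter, the other pseudocounts, edgeR, DESeq2, no variance trend or only the groups compared stayed within that range of 1.5 times.

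Signs were not compared for hairpins called neither in the main fit nor in the alternative. List medians were compared under the scalings only. For the other named hairpins directions turned under scalings only, and that of the motif turned with the segment. With equal totals the medians became -0.63 (miR-29), -0.43 (miR-30), -0.48 (miR-181), -0.29 (miR-200), -0.34 (miR-192 with miR-194 and miR-215), -0.59 (HOX), -0.068 (miR-99 with miR-100) and -0.35 (mir-28 with mir-151 and mir-708), and single hairpins -0.67 (let-7b), -0.55 (mir-192), -0.37 (mir-320a) and -0.31 (mir-320b-1 and mir-320b-2). Centring on the DGCR8-independent hairpins gave medians of 0.35 (miR-15 with miR-16), 0.40 (miR-23, miR-27 and miR-24), 0.87 (miR-320), 0.10 (miR-26), 0.86 (miR-130 with miR-301 and miR-454) and 0.89 (CLCN5 intron), and 0.83 (mir-222), 0.10 (mir-26a-1), 0.18 (mir-320c-1) and 0.24 (mir-423). Median centring gave 0.27 (miR-320), 0.25 (miR-130 with miR-301 and miR-454) and 0.28 (CLCN5 intron). Against WT mir-210 became 0.17 with median centring, 0.12 on the DGCR8-independent hairpins and 0.67 with TMM, mir-221 0.18, 0.12 and 0.69 likewise, mir-148a 0.021 with median centring and 0.53 with TMM, and TMM gave 0.13 (mir-21), 0.33 (mir-28), 0.21 (mir-331) and 0.067 (mir-1306), and let-7g (-0.03) became 0.97 with median centring, 0.72 with equal totals and 1.47 with TMM. Against C352A equal totals gave -0.27 for mir-10a and -0.071 for mir-423. The difference in median between hairpins with and without UGU went from 0.11 to -0.030 with the wider segment.

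No paired analysis was possible because the mock columns could be matched to the mock group but not, one by one, to its labelled replicates, whose numbered titles carry another name. Against WT and C352A the numbers did not pair the libraries: same-numbered libraries had correlations of deviations between -0.34 and -0.06. With the replicate number as a block 157 hairpins were called against WT (6 higher, 151 lower) and 192 against C352A (142 and 50). Mock depth, at most 587214 reads, limits the hairpins of low level, where 1 mock read can set a fold.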
